A study of Mus musculus with 6 samples.

Results

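The imprinted growth control genes described here are 10 genes of which the embryo expresses mainly the copy from 1 parent: H19, Igf2, Igf2r, Meg3, Dlk1, Peg3, Cdkn1c, Grb10, Mest and Plagl1. Their RNA was measured in hearts of Rnd3 knockout (KO) and wild-type (WT) mouse embryos at E10.5, when the looped heart tube is forming chambers. A gene counted as measured where at least 1 probe set of the array is annotated to its symbol alone. That held for 9 of the 10 members, with 30 probe sets, out of 18193 genes in all. The exception was H19, whose symbol stands beside that of a microRNA gene on its probe set, so H19 was not analysed here. The 3 KO arrays hold RNA from hearts of embryos with a gene trap insertion in Rnd3 throughout the embryo. Rnd3, also called RhoE, encodes an atypical GTP-binding protein that restrains the kinase ROCK1, and per the series' design text embryos without it die in mid-gestation, at about this stage or shortly after. The 3 WT arrays hold RNA from wild-type hearts, and the samples of all 6 arrays are labelled with the C57BL/6N background and the same embryonic age. The design text speaks of 3 littermate pairs. Which KO and WT arrays form a pair is not in the labels, and neither is the number of hearts pooled per array, so the p-values measure the spread between these arrays.

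Genomic imprinting silences one parental copy of a gene by DNA methylation set in the egg or sperm, and many imprinted genes of the mouse act on fetal growth. Igf2 encodes the main fetal growth factor of the insulin-like family, Igf2r the receptor that removes it, and Cdkn1c and Grb10 encode brakes on the cell cycle and on receptor signalling. Several members lie in domains with other imprinted genes, such as Dlk1 with the long noncoding RNA gene Meg3, which are expressed from opposite parental copies in the same domain. The array reports the summed RNA of both copies and cannot tell them apart, and in whole hearts fewer cells of a type and less RNA per cell cannot be told apart.

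Rnd3 itself gave signals of 5.89, 12.3 and 121 on KO arrays 1 to 3, against 909, 954 and 862 on WT arrays 1 to 3. The log2 fold change of Rnd3 was -5.46 (limma: SE 0.81, adjusted p = 0.0344). Of the KO arrays only KO array 3 was above the low-signal limit, each array's 40th percentile, so the size of this change is uncertain, and it was -3.89 with log2(signal + 32). Xist, the RNA of the inactive X chromosome, read 539, 8884 and 28.4 on KO arrays 1 to 3 and from 10251 to 12474 on the WT arrays. The Y-linked genes Kdm5d, Uty and Eif2s3y rose in KO, with Kdm5d at 762, 335 and 633 on KO arrays 1 to 3, against 212, 142 and 148 on WT arrays 1 to 3. Genotype and the share of male tissue therefore cannot be told apart. KO array 2 lay closest to the WT arrays in both Xist and the Y-linked genes. Log2 signals correlated between arrays at r = 0.970 to 0.983 over 12712 tested genes. KO array 1 correlated more closely with each WT array (0.980 to 0.981) than with KO array 2 (0.976) or KO array 3 (0.978). The ratio of 3' to 5' Gapdh signal, a sign of RNA integrity, was 0.975, 0.993 and 0.939 in KO and 1.11, 1.09 and 1.13 in WT. The same ratio for Actb overlapped, at 2.45, 2.54 and 2.22 in KO and 2.59, 2.35 and 2.62 in WT. Heart muscle markers were bright on every array, with summed signals of 334279 to 368346 in KO and 349637 to 376714 in WT over 14 genes.

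Among the 9 measured members the knockout hearts differed from wild type with the smallest p in Meg3, a maternally expressed long noncoding RNA, which fell. Its neighbours in the same imprinted domain, Dlk1, Rian and Mirg, did not pass the test. By their brightest probe sets they also read lower on every KO array than on any WT array, as did 15.5% of all tested genes. Mest, a paternally expressed gene of the hydrolase family, read higher on every KO array, as did 10.8% of all tested genes. The remaining members, among them Igf2, Igf2r and Cdkn1c, were very bright and had log2 fold changes between -0.17 and 0.09. Of the 9 members 1 fell, 0 rose and 8 did not pass an adjusted p of 0.05, where 0.488% of all 12712 genes fell and 0.787% rose. At an unadjusted p under 0.05 stood 3 members, Meg3, Dlk1 and Mest, and 20.3% of all genes. Over all genes 62 fell and 100 rose, which is 162 or 1.27%. With each array centred on its median 312 passed, 59 lower and 253 higher, so that 81.1% were higher, against 61.7% without centring. The median log2 fold change was -0.07 for the members and -0.04 for all genes tested. Summed signals of the 9 members were 146695 to 151084 in KO and 151937 to 153918 in WT, without overlap. The brightest members weigh most in that sum, so it does not stand for the list.

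**Figure D1:**
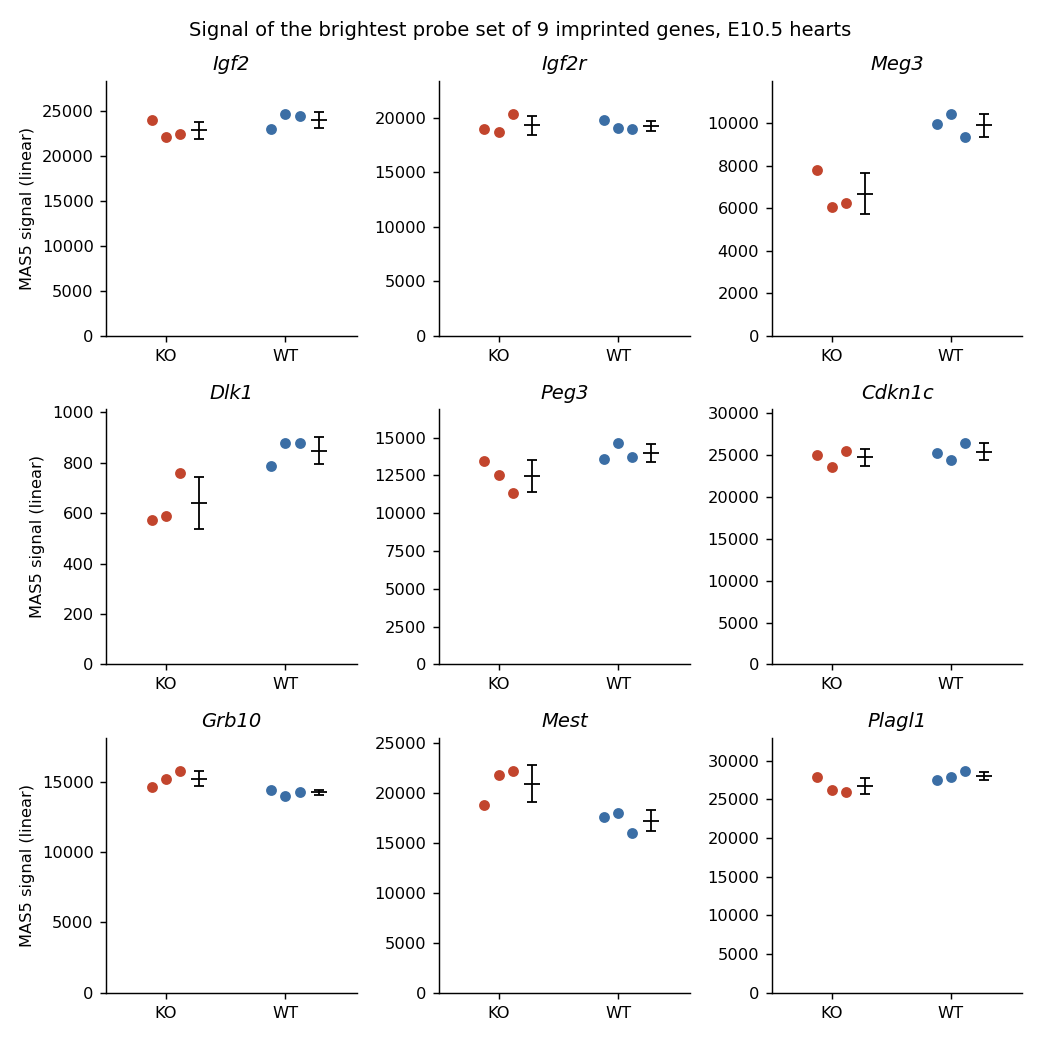
Linear MAS5 signal of the brightest probe set of each of the 9 measured members, with each array as a point, KO left of WT, and the mean with its SD as a bar beside them (n = 3 per group). Meg3, Dlk1 and Peg3 lie lower on all KO arrays than on any WT array, Mest and Grb10 lie higher, and the other 4 overlap. Of all tested genes 15.5% lay lower in this way and 10.8% higher.

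Meg3 read 7795, 6042 and 6238 on KO arrays 1 to 3, against 9942, 10418 and 9354 on WT arrays 1 to 3. All KO arrays lay below all WT arrays, as for 15.5% of tested genes, and KO array 1 lay closest to wild type. The means were 6692 ± 961 in KO and 9905 ± 533 in WT (SD, n = 3 each), a log2 fold change of -0.57 (SE 0.10, 95% interval -0.79 to -0.35, limma adjusted p = 0.0360). On the log2 scale KO arrays 1, 2 and 3 lay 0.34, 0.71 and 0.67 below the WT mean.

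The Meg3 call was lost when any array other than KO array 1 was left out, although the sign was negative under all 16 alternatives tried. Its limma adjusted p was 0.0550 without KO array 2, 0.127 without KO array 3, 0.152 without WT array 1, 0.186 without WT array 2 and 0.114 without WT array 3. Without KO array 1 it was 0.00427, and over the 16 alternatives it ran from 0.00427 to 0.329. With an array left out the log2 fold change stayed between -0.69 and -0.50. Over all genes 0 passed without WT array 1 or 2, 4 without WT array 3, 2 without KO array 3 and 64 without KO array 2. Rnd3 also missed the threshold without any of the WT arrays. With log2 Xist as a covariate the fold change of Meg3 was -0.60 (SE 0.14, adjusted p = 0.0692). It shrank to -0.30 (adjusted p = 0.329) where the log2 signals of all Meg3 probe sets were averaged.

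That average covers 11 probe sets which did not behave alike. Each was bright enough to be tested on its own, and 9 had a negative and 2 a positive log2 fold change. In 4 of them all KO arrays lay below all WT arrays and in 1 above, where 13.5% of the 23339 probe sets tested on their own lay below and 10.4% above. The calls came to 2 of the 11, against 0.63% of all probe sets. Probe set 1452183_a_at had 3008, 2279 and 2681 in KO and 5021, 5596 and 4440 in WT. It gave -0.92 (SE 0.12, adjusted p = 0.0249), further from 0 than the brightest probe set. Probe set 1426758_s_at had 1289, 1002 and 1141 in KO and 2006, 2137 and 1512 in WT, a change of -0.71 that missed the threshold (adjusted p = 0.0547). The brightest, 1439380_x_at, carries the suffix x, which the manufacturer gives to probe sets with probes that may bind other transcripts. The suffix s of 1426758_s_at marks probes shared by several transcripts. This probe set and 1452183_a_at were designed from the same sequence, so they are not independent readings of Meg3.

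Signals of 2 bright Meg3 probe sets overlapped between the genotypes. Probe set 1452905_at had 4529, 5201 and 3565 in KO and 6085, 7157 and 4054 in WT (-0.36, adjusted p = 0.354), and 1436713_s_at had 1202, 1591 and 984 in KO and 1248, 1872 and 833 in WT (-0.02, adjusted p = 0.983). The 2 with positive values were dimmer, though above the low-signal limit on all 6 arrays. Probe set 1452906_at had 293, 294 and 251 in KO and 167, 261 and 139 in WT (0.61, adjusted p = 0.180), and 1429257_at had 209, 204 and 237 in KO and 184, 159 and 195 in WT (0.27, adjusted p = 0.410). The 4 dimmest probe sets all had negative values. Of these, 1428765_at had 167, 87.0 and 134 in KO and 171, 182 and 186 in WT, without overlap (-0.53, adjusted p = 0.277). The other 3 overlapped, with -0.65 for 1436057_at, -0.36 for 1428764_at and -0.08 for 1429256_at. Among the 11, 1452905_at, 1428765_at and 1428764_at also share a design sequence, and 1429257_at and 1429256_at share another. The 11 are therefore not independent readings. Meg3 is spliced into many isoforms, and which of them each probe set detects was not analysed here.

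**Figure D2:**
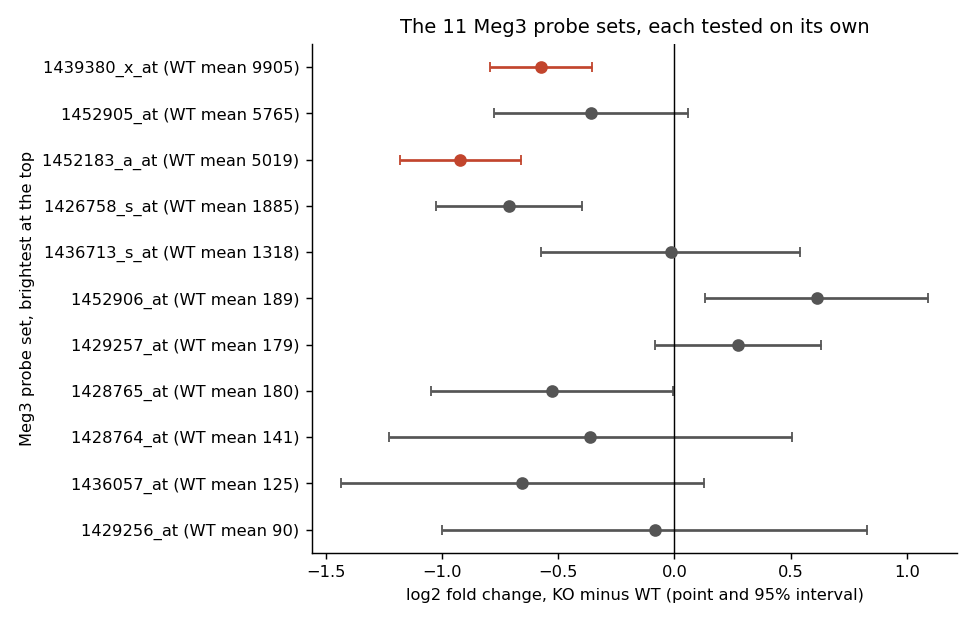
Log2 fold change, KO minus WT, of the 11 Meg3 probe sets, ordered by mean signal over the 6 arrays with the brightest at the top, with 95% intervals from limma and the WT mean signal in the label. The 2 drawn in red pass an adjusted p of 0.05, and 9 of the 11 points lie left of 0.

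Dlk1, the paternally expressed neighbour of Meg3, encodes a membrane protein related to Notch ligands that is known for holding progenitor cells undifferentiated. Its brighter probe set read 575, 587 and 761 on KO arrays 1 to 3, against 787, 879 and 877 on WT arrays 1 to 3. All KO arrays lay below all WT arrays, as for 15.5% of tested genes, with KO array 3 just under WT array 1. The log2 fold change was -0.41 (SE 0.13, 95% interval -0.70 to -0.13, limma adjusted p = 0.111), from means of 641 ± 104 in KO and 848 ± 52.5 in WT (SD, n = 3 each). The other Dlk1 probe set was near or below the low-signal limit and read 27.4, 55.0 and 52.2 in KO and 11.7, 59.0 and 32.6 in WT. Averaging it with the brighter one turned the sign of Dlk1 to 0.094 (adjusted p = 0.918).

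The same domain on chromosome 12 holds 2 more measured noncoding genes, Rian and Mirg, which are expressed from the maternal copy like Meg3 and host small nucleolar RNAs and microRNAs. Rian was chosen after its values were seen. It read 5505, 5590 and 5653 in KO, against 7019, 6774 and 6511 in WT. The KO arrays lay within a narrow range below all WT arrays, and the log2 fold change was -0.28 (limma: SE 0.07, adjusted p = 0.0760). Mirg read 183, 208 and 196 in KO, against 336, 291 and 277 in WT, a log2 fold change of -0.62 (SE 0.15, adjusted p = 0.0610). By their brightest probe sets all 4 tested genes of the domain were lower on every KO array, where 15.5% of all tested genes lay that way. Rian was named after its values were seen and Mirg for its small p, so this count is not read as a result about the domain. Of the 4 Rian probe sets 4 had a negative fold change and 2 did not overlap, and of the 2 Mirg probe sets 2 had a negative one and 1 did not overlap. All KO arrays lay below all WT arrays in 4 of the 11 Meg3 and 1 of the 2 Dlk1 probe sets. Of all probe sets tested on their own, 13.5% lay lower on every KO array. The domain's genes Rtl1 and Dio3 were not analysed here.

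**Figure D3:**
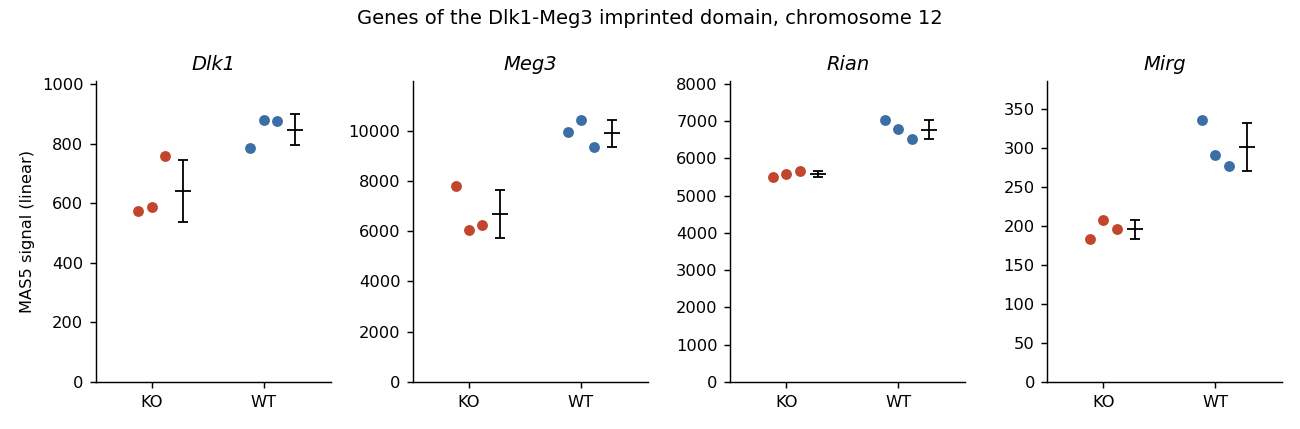
Linear MAS5 signal of the brightest probe set of the 4 tested genes of the Dlk1-Meg3 domain, with KO left of WT, each array as a point, and the mean with its SD beside it (n = 3 per group). In each panel all KO points lie below all WT points, most narrowly in Dlk1 (761 in KO and 787 in WT for the nearest arrays).

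Genes flanking the domain in RefSeq gene order, chosen after the values of Meg3 were seen, did not pass the test. On the Dlk1 side, Wars, the tryptophan tRNA synthetase gene, had -0.38 (adjusted p = 0.206) without overlap, while Wdr25 (-0.30), Slc25a47 (0.08) and Slc25a29 (-0.10) overlapped. On the side beyond Mirg, the phosphatase subunit gene Ppp2r5c overlapped at -0.0044 (adjusted p = 0.986).

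The start regions of Meg3, Dlk1 and Mest are printed from RefSeq, as the 250 bases before the annotated start, because these 3 members had an unadjusted p under 0.05. Windows were found for 8 members, 15 windows in all, and build and strand are those of the table (GRCm38.p6). Capitals mark every CG, the dinucleotide at which imprints are methylated, and 1 of the 2 annotated starts of Meg3 and 2 of the 3 of Mest are given.
Meg3, chr12:109540746-109540995, plus strand: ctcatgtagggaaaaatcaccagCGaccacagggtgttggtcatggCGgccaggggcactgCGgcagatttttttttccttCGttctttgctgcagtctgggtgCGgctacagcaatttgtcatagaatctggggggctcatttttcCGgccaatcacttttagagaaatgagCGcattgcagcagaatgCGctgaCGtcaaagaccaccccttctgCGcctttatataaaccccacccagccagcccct
Dlk1, chr12:109452573-109452822, plus strand: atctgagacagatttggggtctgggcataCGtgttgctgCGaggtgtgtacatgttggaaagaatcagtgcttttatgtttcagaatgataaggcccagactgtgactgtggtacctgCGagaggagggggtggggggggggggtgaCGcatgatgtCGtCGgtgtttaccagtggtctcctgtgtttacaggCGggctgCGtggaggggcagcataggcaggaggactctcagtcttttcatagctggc
Mest, upstream start, chr6:30733256-30733505, plus strand: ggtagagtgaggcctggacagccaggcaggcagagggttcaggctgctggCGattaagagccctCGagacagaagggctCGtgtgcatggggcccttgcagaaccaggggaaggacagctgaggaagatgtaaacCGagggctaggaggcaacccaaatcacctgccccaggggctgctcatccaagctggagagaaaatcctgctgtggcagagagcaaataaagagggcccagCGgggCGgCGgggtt
Mest, downstream start, chr6:30737800-30738049, plus strand: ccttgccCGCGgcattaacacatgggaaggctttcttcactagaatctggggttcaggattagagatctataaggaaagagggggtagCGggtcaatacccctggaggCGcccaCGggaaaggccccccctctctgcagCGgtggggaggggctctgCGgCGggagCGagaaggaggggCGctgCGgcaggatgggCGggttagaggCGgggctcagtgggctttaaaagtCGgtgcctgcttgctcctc

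The printed Meg3 window held 10 CG, the Dlk1 window 8, and the Mest windows 7 at the upstream and 14 at the downstream start, against a median of 6 over 32851 windows of mouse genes. The window of the other Meg3 start, chr12:109545148-109545397 on the plus strand, held 0 CG. For the 4 printed windows, in the order given, at least as many CG stood in 37.8%, 43.0%, 46.3% and 29.4% of all windows. The richest member window was that of Grb10 with 40 CG, a number reached by 1.3% of windows. The windows were searched on both strands for 4 motifs, of which TGACGTCA was chosen after the sequences were seen. TATAAA, the core promoter box, was in 12.37% of all windows and among member windows only in the printed one of Meg3, at 25 and 29 bases before the start. TGACGTCA, the cyclic AMP response element, was in 1.55% of all windows and in the printed one of Meg3, 57 bases before the start, and in that of Peg3, 178 bases before it. GGGGCCCC, a palindrome bound by the zinc finger protein that Plagl1 encodes, was in 0.89% of windows and in that of Peg3 alone among members. GGGCGG, the GC box, was in 32.74% of windows and in 8 of the 15 member windows, all starts of Mest included and those of Meg3 and Dlk1 not. The Mest window not printed, chr6:30737803-30738052, covers nearly the same bases as the printed downstream one. The same GC box, 60 and 57 bases before these starts, is therefore counted in both, and the 15 windows are not independent. These matches describe letters in the windows and not binding in these hearts.

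Of the growth-promoting side, Igf2 was among the brightest genes of the array. Its signal was 23961, 22120 and 22492 on KO arrays 1 to 3, against 23033, 24634 and 24475 on WT arrays 1 to 3. The groups overlapped, with a log2 fold change of -0.07 (SE 0.06, 95% interval -0.21 to 0.07, limma adjusted p = 0.556). The dimmer Igf2 probe set read 2656, 1676 and 2518 in KO and 2492, 2155 and 2619 in WT, also with overlap (-0.11, adjusted p = 0.770). The genes whose pattern over the 6 arrays was most like that of Igf2 were Rps2, Tmsb10, Yy1, Gar1 and Cox6a1. Their log2 signals, each less its own mean, differed from those of Igf2 by a root mean square of 0.0170 to 0.0247. None of the 5 passed the threshold. That follows from the choice, since they were picked for likeness to a gene that did not pass, and is not a result. Mrpl23, a mitochondrial ribosomal protein gene and the nearest tested neighbour of Igf2 on one side, was chosen after its values were seen and rose, with 4663 ± 353 in KO and 3257 ± 175 in WT (0.52, SE 0.09, adjusted p = 0.0360). Igf2os on the other side had -0.09 (adjusted p = 0.769).

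Mest read 18768, 21754 and 22137 on KO arrays 1 to 3, against 17613, 17948 and 15990 on WT arrays 1 to 3. All KO arrays lay above all WT arrays, as for 10.8% of tested genes, with KO array 1 closest to them. The log2 fold change was 0.28 (SE 0.08, 95% interval 0.10 to 0.46, limma adjusted p = 0.0958), from means of 20886 ± 1845 in KO and 17184 ± 1047 in WT (SD, n = 3 each). Of the 16 alternatives it passed the threshold only without KO array 1, at 0.35 (adjusted p = 0.0279). Under the other 15 the limma adjusted p ran from 0.0631, with median centring, to 0.275, without the intensity trend. A single probe set reports this gene. Its nearest tested neighbours, Cep41 (0.05) and Copg2 (-0.10), were chosen after the values of Mest were seen and overlapped between the genotypes.

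Peg3 encodes a zinc finger protein and is expressed from the paternal copy. Its brightest probe set read 13465, 12527 and 11337 in KO, against 13598, 14660 and 13706 in WT. The KO arrays lay below all WT arrays, as for 15.5% of tested genes, but with KO array 1 close to WT array 1. The log2 fold change was -0.17 (SE 0.08, 95% interval -0.34 to 0.0012, limma adjusted p = 0.250). Another bright probe set had 9071, 9330 and 8295 in KO and 10989, 10338 and 8629 in WT (-0.16, adjusted p = 0.417), and 1417356_at had -0.05 (adjusted p = 0.926). The other 2 of the 5 Peg3 probe sets were below the low-signal limit on all arrays.

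Plagl1, also known as Zac1, encodes a zinc finger transcription factor that acts on other imprinted genes. Its brightest probe set read 27860, 26241 and 25946 in KO, against 27525, 27878 and 28631 in WT, with overlap (-0.07, 95% interval -0.20 to 0.06, limma adjusted p = 0.546). A much dimmer Plagl1 probe set, 1450533_a_at, went the other way, at 343, 939 and 632 in KO against 426, 346 and 311 in WT (0.72, SE 0.29, adjusted p = 0.227). KO arrays 2 and 3 were above all WT arrays there and KO array 1 was among them. With a gene's probe sets averaged, the sign of Plagl1 turned to 0.13 (adjusted p = 0.782).

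Of the growth-restraining side, Cdkn1c, which encodes the cyclin-dependent kinase inhibitor p57, read 25011, 23530 and 25494 in KO, against 25252, 24374 and 26434 in WT. The groups overlapped and the log2 fold change was -0.04 (95% interval -0.18 to 0.10, limma adjusted p = 0.771). It turned to 0.010 with each array centred on its median. Igf2r, which carries Igf2 to the lysosome, read 18994, 18678 and 20333 in KO, against 19780, 19118 and 18941 in WT, with a log2 fold change of 0.0034 (95% interval -0.14 to 0.14, adjusted p = 0.984). The sign of that value was negative under 6 of the 16 alternatives. The other Igf2r probe set had 12241, 10364 and 11145 in KO and 12024, 12306 and 13344 in WT (-0.16, adjusted p = 0.328).

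Grb10, an adaptor that restrains insulin-like growth factor receptor signalling, read 14656, 15215 and 15741 in KO, against 14406, 14008 and 14288 in WT. All KO arrays lay above all WT arrays, as for 10.8% of tested genes, with a log2 fold change of 0.09 (SE 0.06, 95% interval -0.05 to 0.24, limma adjusted p = 0.444). The other 2 Grb10 probe sets were much dimmer, overlapped, and had -0.06 and 0.05. Over the 4 tested maternally expressed members the median log2 fold change was -0.02, and over the 5 paternally expressed ones -0.07.

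The brightest probe sets of Plagl1, Cdkn1c and Igf2 reached 63.7% to 68.5%, 56.7% to 64.5% and 53.3% to 57.7% of the highest signal on each array. Array signals flatten near their maximum, and whether this made their fold changes smaller was not tested.

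Among 66 further imprinted genes, 49 were tested and had a median log2 fold change of -0.08, with 2 that rose, 0 that fell and 47 that did not pass, 17 positive and 32 negative. At an unadjusted limma p under 0.05 there were 6 higher and 7 lower. Over all tested genes 5573 were positive and 7139 negative. The 2 were Commd1, a regulator of endosomal sorting, and Mcts2, a retrogene in an intron of H13. Commd1 had 3918 ± 210 in KO and 2829 ± 208 in WT (SD, n = 3 each), which is 0.47 on the log2 scale (limma: SE 0.09, adjusted p = 0.0389). Mcts2 had 1666 ± 71.2 in KO and 1209 ± 86.1 in WT, a log2 fold change of 0.46 (SE 0.10, adjusted p = 0.0487). Mcts2 is a copy of the X-linked Mcts1, so its signal may include RNA of that gene. The number that rose was 1 with the replicate block, and it was 0 without KO array 2 or 3 or any of the WT arrays, with log2 Xist as a covariate, with averaged probe sets, with no low-signal limit and without the intensity trend. Without KO array 1, 6 rose and 2 fell. Since the array does not separate the parental copies, whether each of these genes is imprinted in these hearts was not tested.

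Osbpl5, a lipid transfer protein gene, had 299 ± 22.6 in KO and 191 ± 14.4 in WT, without overlap (0.65, SE 0.15, limma adjusted p = 0.0552). In 9 of the 49 genes all KO arrays lay below all WT arrays, Rian and Mirg included, and in 4 they lay above, against 15.5% and 10.8% of all tested genes. The summed signal of the 49 was 95374 to 98017 in KO and 99450 to 100721 in WT, without overlap, and the brightest genes weigh most in it. Neither these counts nor the sum are read as a result about the list. The noncoding transcript Kcnq1ot1, which silences Cdkn1c and its neighbours on the paternal copy, had 1311, 976 and 1003 in KO and 1678, 1322 and 1433 in WT (-0.44, adjusted p = 0.110). The noncoding transcript Airn, which silences Igf2r on the paternal copy, had 1926, 2184 and 1898 in KO and 1828, 1625 and 1550 in WT (0.26, adjusted p = 0.178). Both were chosen after their values were seen, for their place beside members.

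Of 29 tested genes of the insulin-like growth factor pathway, none rose or fell (limma, median log2 fold change 0.04), and 5 had an unadjusted p under 0.05. Their summed signal was 59238 to 63962 in KO and 65362 to 68815 in WT. It did not overlap, but the brightest genes weigh most in it, so it does not stand for the list. In that list 1 rose and 2 fell without KO array 1, 1 rose with median centring, and 1 fell with quantile normalization and with the low-signal limit required on all arrays. The median turned to -0.08 with averaged probe sets, to -0.02 with the Xist covariate and to -0.02 without WT array 1. Nearest the threshold were Irs1, an adaptor of the receptor, at 3376 ± 338 in KO and 4396 ± 136 in WT (-0.39, SE 0.09, adjusted p = 0.0615), and the binding protein gene Igfbp4 at 5632 ± 612 in KO and 7277 ± 331 in WT (-0.37, SE 0.09, adjusted p = 0.0645). The kinase gene Pdpk1 had 2152 ± 235 in KO and 1612 ± 97.4 in WT (0.41, SE 0.10, adjusted p = 0.0692). The binding protein gene Igfbp5 had 16108 ± 1781 in KO and 20357 ± 2116 in WT (-0.34, SE 0.10, adjusted p = 0.0958). In each of these 4 genes the groups did not overlap, but they were named for their small p and do not stand for the list. Among all 29, every KO array lay below all WT arrays in 6 genes and above in 3. Of all tested genes 26.3% did not overlap, either way. Of 19 tested genes that keep imprints or act in linked chromatin none passed (limma, median -0.0011), and 3 had an unadjusted p under 0.05. The Polycomb gene Suz12 had -0.26 (adjusted p = 0.133), the imprint-binding zinc finger gene Zfp445 -0.26 (0.170), Uhrf1, which brings the maintenance methyltransferase to DNA, 0.21 (0.177) and Trim28, the corepressor that imprint-binding zinc finger proteins recruit, -0.16 (0.251).

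**Figure D4:**
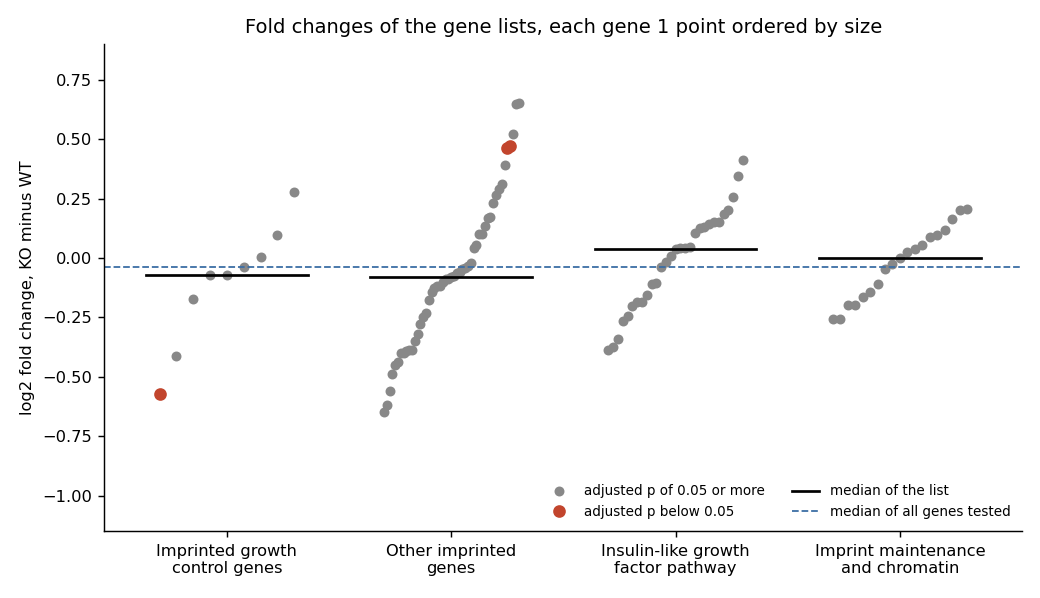
Log2 fold change, KO minus WT, of each tested gene in 4 lists, ordered by size within a list, with the list's median as a black line and the median of all tested genes (-0.04) dashed. Red points pass an adjusted p of 0.05: Meg3 among 9 members and Commd1 and Mcts2 among 49 other imprinted genes.

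Several members are also expressed outside heart muscle, in yolk sac and liver endoderm, mesenchyme and nerve cells, and markers of these cells were set beside them. For endoderm of liver and yolk sac, 20 markers were measured and 12 tested. All 12 had a negative fold change (median -0.83), 6 of them at an unadjusted limma p under 0.05. Habp2 (limma adjusted p = 0.0389) and Alb (0.049997, just under the threshold) fell. Habp2 was above the low-signal limit on 0 KO and 3 WT arrays, and Alb on 1 KO and 3 WT arrays. Such markers were tested mainly through their WT signals. The signs and the median therefore follow in part from the filter and are not read as a result about the list. Afp, the gene of a main fetal serum protein, was chosen after its values were seen and read 216, 1074 and 2.78 on KO arrays 1 to 3, against 1116, 2496 and 6054 on WT arrays 1 to 3. The summed signal of the 12 tested was 968, 2420 and 795 on KO arrays 1 to 3, against 2149, 3915 and 8111 on WT arrays 1 to 3, with overlap. Afp alone made up most of the sum on each WT array, so the sum does not stand for the list. Apoa4 and Ahsg were above the low-signal limit on no array. Markers of cushion and other mesenchyme had summed signals of 37352 to 45929 in KO and 40501 to 46044 in WT, and 0 of 10 passed (limma, 2 at an unadjusted p under 0.05, median -0.11). Of 7 measured markers of neurons and neural crest 5 were tested and none passed, with 1 at an unadjusted p under 0.05. The summed signal of these 5 was 725 to 830 in KO and 733 to 1048 in WT, and Foxd3 and Neurod1 were above the limit on no array. Endothelial markers, 10 tested, had a median of -0.0046 with none called and 1 at an unadjusted p under 0.05. Of 6 tested macrophage markers Lyz2 rose (1.38, SE 0.25, limma adjusted p = 0.0374). The other 5 did not pass and overlapped between the genotypes, and the median of the 6 was 0.11. None was called among 14 heart muscle markers (limma, 4 at an unadjusted p under 0.05, median -0.08), 7 of epicardium (1, -0.04), 6 of red blood cells (0, 0.03) or the 2 tested of skeletal muscle precursors (0, 0.01). The precursor markers Pax7 and Myf5 were above the limit on no array. The part of other cells in the Meg3 and Dlk1 differences was not tested.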

How the data were processed

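Embryonic heart RNA was hybridised as biotin-labelled cRNA to 6 Affymetrix mouse arrays, grouped by labelled genotype. The authors deposited linear signal intensity, 1 value for each probe set. Per the submitters' processing notes the tools were MAS5 and Affymetrix Expression Console, with versions and settings not given in the sources used here. The mean of every array, less the outer 2% on both sides, was 500.0, and the main analysis added no normalization. MAS5 subtracts mismatch signal, so dim probe sets are noisy. Of 45037 probe sets besides 64 controls, 34945 had 1 gene symbol in the platform annotation, 932 had several and 9160 were unnamed here, and genes were named only from the first kind.

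Signals were taken to log2, and each gene was read by its probe set with the highest mean. Testing required that this probe set lay above a low-signal limit on at least 3 of 6 arrays. The limit, each array's 40th percentile, was 44.5 to 52.8 and is a working choice. All 12712 such genes entered 1 fit of KO minus WT by limma 3.58.1 (R 4.3.3), with lmFit and a trended eBayes. P-values were adjusted by Benjamini-Hochberg, and genes under 0.05 are said to have risen or fallen. A separate fit took all 23339 probe sets above the limit. Lists are described by counts and medians, without a test of the list. The fit was tested on simulated data with planted log2 changes of 1 or 2 in either direction. These are larger than the changes of the members, so the simulation does not show whether changes of their size are recovered. No 2 arrays shared more than 2 probe sets with exactly the same deposited value, all decimals compared. The number of arrays limits the precision.

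The members and lists were chosen with earlier results of these data known. Named are all members with their probe sets, up to 4 genes of each list with the smallest p (for cell markers only those that passed are printed), Rnd3, the sex-linked genes and the 5 genes most like Igf2. Genes outside that rule are said to be chosen after their values were seen. The wider lists cover other imprinted genes, the insulin-like growth factor pathway, imprint maintenance and cell type markers. Alternatives covered normalization, centring, low values, the filter, the probe set, the variance model, a replicate block, an Xist covariate and leaving out each array. Sequences came from RefSeq tables (GRCm38.p6). Figures were drawn with matplotlib 3.10.9.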

Additional observations from a re-analysis of the deposited data

How the results depend on the processing

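The count of members past the threshold was 1, and it was 1 as well with quantile normalization, median centring, log2(signal + 32), the stricter filter, every probe set tested on its own and the replicate block. It was 0 with no low-signal limit, with averaged probe sets, without the intensity trend and with log2 Xist as a covariate, and 0 to 2 when each array was left out in turn. Over all genes the count was 162. It became 312 with median centring, 291 with the filter on all arrays, 1 with no limit, 0 with probe sets averaged (1720 at an unadjusted limma p under 0.05), 1 without the trend and 6 with the Xist covariate, and it ran from 0 to 917 when each array was left out (0 without WT array 1 or 2, with 1925 and 1742 at an unadjusted p under 0.05). The causes were not tested. Signs turned only for values that did not pass: Igf2r had -0.043 with quantile normalization, -0.079 with probe sets averaged, -0.064 with the Xist covariate and -0.033 to 0.028 with an array left out, Cdkn1c had 0.010 with median centring, and with probe sets averaged Dlk1 had 0.094 and Plagl1 0.13. Rnd3 kept its sign where tested but missed the threshold with no limit (adjusted p = 0.0518), averaged probe sets (0.0825), no trend (0.206) and without WT array 1 (0.152), 2 (0.166) or 3 (0.114), and it was not tested where all arrays had to pass the limit. Over all genes 917 passed without KO array 1, 64 without KO array 2, 2 without KO array 3 and 4 without WT array 3.

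The replicate number as a block gave 189 genes and kept the Meg3 call (adjusted p = 0.0292). Same-numbered arrays did not deviate together (r of 0.02, 0.06 and 0.02 over 12712 genes), and not every array correlated best with its own number, so the numbers were not taken as pairs. With 3 arrays a group, differences in dim probe sets lay within wide intervals.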
